A study of Mus musculus with 3 samples.

Results

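Replication-dependent histone genes were compared between late carcinomas and adenomas of the mouse mammary gland, on 3 arrays of 2 channels. Their members were taken by symbol from the annotation of the array: all genes named H2ac, H2bc, H3c or H4c with a number, the core histone genes of the clustered kind. The rule found 51 genes on 59 array rows, and 5 histone variant genes outside the clusters (H3f3a, H3f3b, H2az1, H2ax and Macroh2a1), with 5 rows, were set beside them, so that 56 of 15055 named genes were described. The rule also asked for symbols starting with H1-, but the annotation names the linker histone genes H1f, so no H1 gene is a member. The family was selected on these same ratios, because many of its genes had been seen below 0 in them. All values of the members are therefore given as a description, with no test of the family.

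Both stages grew from single hyperplasias of pubertal donors that carried the MMTV-PyMT and B-actin-GFP transgenes, put into syngeneic hosts. Late carcinomas were outgrowths of 18 weeks, and adenomas were outgrowths of 5 weeks. MMTV-PyMT expresses the middle T oncogene of polyoma virus from a promoter active mainly in mammary epithelium, and an outgrowth also holds cells of the host, which the transgene does not mark. The labels give no strain, no host age and no number of animals, so the spread between the 3 arrays may be technical. On each array total RNA of the late carcinoma was in the Cy3 channel and that of the adenoma in the Cy5 channel, with no dye swap, so a dye effect and a stage effect cannot be told apart. Values are log2 ratios of adenoma over late carcinoma: a value below 0 is likely higher in late carcinoma. The direction and the log base are not stated with the values, and were read from the labelled dyes and common practice; turning the ratio would turn every direction given here. A ratio carries no level, so the presence of a tissue marker could not be checked. In bulk tissue, fewer cells of a type (or fewer cells in S phase) and less RNA per cell cannot be told apart.

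Core histones H2A, H2B, H3 and H4 form the spool on which DNA is wound, and a cell makes most of them while it copies its DNA. The genes of this supply lie mainly in clusters. As a rule they have no introns and give messenger RNAs that end in a conserved stem-loop in place of a poly(A) tail. Variants such as H3.3, H2A.Z and macroH2A are made outside S phase too, from ordinary polyadenylated transcripts. The labels name total RNA, and how it was primed for labelling is not given in the sources used here. Genes of a histone class are near copies of each other, so an array row can bind transcripts of several of them. A value is that of the row named for a gene and may not be that gene's alone.

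Promoters of 4 members are shown because they carry the lowest H2B and H4 means, the highest mean of the clustered genes and the highest of the variants. Each is the stretch of 200 bases before the annotated start, read along the gene's strand, from RefSeq on GRCm38.p6: chr13:23574208-23574407 on the minus strand for H2bc7, chr3:96269500-96269699 on the plus strand for H2bc18, chr13:21750554-21750753 on the minus strand for H4c12 and chr1:180813606-180813805 on the minus strand for H3f3a. Capitals mark matches, on either strand, to CCAAT, to TATAAA, to the octamer ATTTGCAT and to TTCGCGC, a form of the E2F site.
H2bc7: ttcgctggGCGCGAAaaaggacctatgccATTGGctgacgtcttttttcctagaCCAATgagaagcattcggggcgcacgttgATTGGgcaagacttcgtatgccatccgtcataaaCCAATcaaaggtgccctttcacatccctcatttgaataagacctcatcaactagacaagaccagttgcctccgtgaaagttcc
H2bc18: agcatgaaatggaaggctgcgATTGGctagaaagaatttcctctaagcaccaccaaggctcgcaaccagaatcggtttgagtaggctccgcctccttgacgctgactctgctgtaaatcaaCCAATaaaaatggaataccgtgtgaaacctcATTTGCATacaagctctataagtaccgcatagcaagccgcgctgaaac
H4c12: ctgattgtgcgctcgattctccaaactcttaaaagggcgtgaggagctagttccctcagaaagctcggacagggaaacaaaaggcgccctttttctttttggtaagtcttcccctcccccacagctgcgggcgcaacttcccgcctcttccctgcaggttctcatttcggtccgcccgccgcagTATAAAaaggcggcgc
H3f3a: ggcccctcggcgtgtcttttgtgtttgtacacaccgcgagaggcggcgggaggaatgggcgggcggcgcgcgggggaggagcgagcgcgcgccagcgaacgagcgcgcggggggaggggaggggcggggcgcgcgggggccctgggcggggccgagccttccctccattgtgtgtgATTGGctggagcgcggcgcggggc
H2bc7 had 4 CCAAT matches and an E2F match, with no octamer in this stretch. H2bc18 had 2 CCAAT matches and the octamer 48 to 41 bases before the start. H4c12 had a TATAAA match and no CCAAT, and H3f3a had a single CCAAT match on the opposite strand.

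Most clustered histone genes lay below 0, the late carcinoma side. Of the 51 genes, 45 had a mean below 0, 35 had a mean at or under -0.5 and 13 had a mean at or under -1, which is 2-fold. Over all 31058 genes and unnamed rows measured on 3 arrays, 5.99% lay at or under -0.5 and 0.428% at or under -1. The 51 means ran from -1.51 to 1.11 with a median of -0.83, against a median of -0.02 over all features. Array 1 set much of that size: without it the median of the 51 was -0.53, and those of H2A, H2B, H3 and H4 were -0.54, -0.60, -0.33 and -0.53. On all 3 arrays 40 of the 51 lay below 0 and 5 above 0, while 30.6% of all features lay below 0 on the 3 arrays.

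In a limma fit over all features, with p-values adjusted by the Benjamini-Hochberg method, 30 of the 51 passed an adjusted p of 0.05 below 0 and 3 above 0, and 18 did not pass. Over all features 25.1% passed, 9.21% below 0 and 15.9% above 0. Without array 3 limma called 1 of all 31058 features, so nearly all calls of the table were lost, and it called 0 of the 51, with a lowest adjusted p of 0.114, while 34 had an unadjusted p under 0.05 below 0 and 3 above 0. Without array 1, 31 of the 51 passed below 0, against 9.14% of all features, and without array 2, 35 passed, against 7.65%. Without array 3, 46 of the 51 means lay below 0.

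The arrays differed in the size of the ratios. The median of the 51 genes was -1.27 on array 1, -0.44 on array 2 and -0.67 on array 3. Array 1 gave the lowest of the 3 values for 36 genes, and array 2 the highest for 34. The SD over all rows of the table was 0.569, 0.382 and 0.457 on the same arrays and the median absolute deviation was 0.271, 0.265 and 0.278, so the arrays differed in their far values and hardly in the bulk of the table. Across the 51 genes, which share the arrays and partly their sequence, Pearson's r with array 2 was 0.745 for array 1 and 0.807 for array 3, and array 1 against array 3 gave 0.698. Spearman's rho for the same pairs was 0.617, 0.784 and 0.594. Over all features Pearson's r for these pairs, in the same order, was 0.610, 0.711 and 0.744, so the correlation of the histone genes was higher than that of the whole table in the pairs with array 2 and lower in the third pair.

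**Figure D1:**
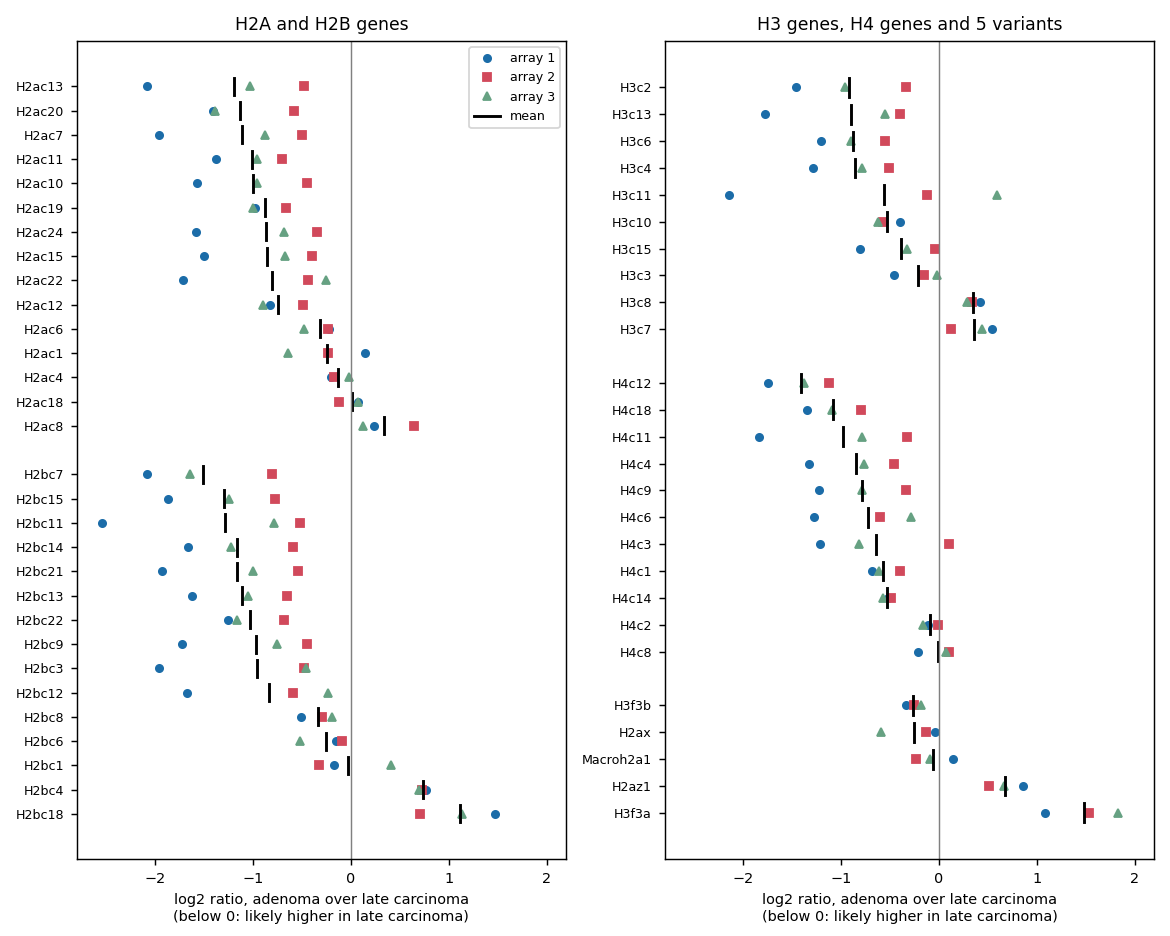
Log2 ratio (x axis, adenoma over late carcinoma) of each of the 51 clustered histone genes and the 5 variants (y axis), with a point for each of 3 arrays and a black bar for their mean. Most clustered genes lie left of 0, with array 1 farthest out and array 2 nearest to 0. The clustered genes H2bc4, H2bc18, H2ac8, H3c7 and H3c8 and the variants H3f3a and H2az1 lie right of 0 on every array.

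H2A genes, whose product pairs with H2B at the ends of the histone core, numbered 15 with a median of -0.86. Of these, 9 passed below 0, and limma called 0 above 0, where 1 had an unadjusted p under 0.05. The lowest was H2ac13, with -2.08, -0.48 and -1.03 on arrays 1, 2 and 3, a mean of -1.19 ± 0.81 (SD, n = 3). H2ac20 had -1.41, -0.58 and -1.39, a mean of -1.13 ± 0.47, or 2.18-fold higher in late carcinoma. H2ac7 had -1.96, -0.50 and -0.88, and did not pass with a running median of 29 rows. All values of these genes lay below 0, with array 2 nearest to it.

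H2ac11, H2ac10, H2ac19, H2ac24, H2ac15 and H2ac12 also passed below 0, with means from -1.01 to -0.74. H2ac19, whose protein equals that of its neighbour H2ac18 in textbook accounts, was even across arrays at -0.98, -0.66 and -1.0. H2ac22 had a mean of -0.80 ± 0.79 and did not pass, its array 1 value of -1.71 standing apart from -0.44 and -0.25. It passed below 0 without array 2 and with receptor centring, described at the end. H2ac6 (-0.31 ± 0.15) and H2ac4 (-0.13 ± 0.10) had means nearer to 0. H2ac8 alone among the H2A genes lay above 0 on all 3 arrays, with 0.24, 0.65 and 0.12. It came to -0.01 when arrays were centred on the receptor genes described at the end, and to 0.49 with the running median, where it passed above 0.

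H2B genes numbered 15 and had the lowest median of the classes, -0.97, with 8 past the threshold below 0 and 2 above 0. These were 53.3% and 13.3% of the class, against 9.21% and 15.9% of all features. H2bc7 had the lowest mean of the 51, with -2.08, -0.80 and -1.64, a mean of -1.51 ± 0.65 or 2.84-fold higher in late carcinoma. H2bc15 had -1.87, -0.77 and -1.24, a mean of -1.29 ± 0.55. H2bc11 had -2.54, -0.52 and -0.78, a similar mean of -1.28 with a wider SD of 1.10, set by array 1, and did not pass with median centring or the running median. H2bc14, H2bc21, H2bc13, H2bc22 and H2bc9 passed as well, with means from -1.16 to -0.97.

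Among the H2B genes that did not pass, H2bc3 (-0.96 ± 0.86) and H2bc12 (-0.83 ± 0.75) had means of the same size with wide spreads. H2bc3 did pass below 0 without array 1 or 2 and with receptor centring. It also passed with the first row of each gene, each row as its own feature, array weights or named genes alone. H2bc12 passed below 0 with receptor centring and without array 2. H2bc8 (-0.33 ± 0.17) and H2bc6 (-0.25 ± 0.23) lay closer to 0, though below it on all arrays. H2bc4 and H2bc18 ran the other way. H2bc18 had 1.47, 0.71 and 1.14, a mean of 1.11 ± 0.38 or 2.15-fold higher in adenoma. H2bc4 had 0.77, 0.73 and 0.70, a mean of 0.74 ± 0.04, with the arrays almost equal. These passed above 0, so the H2B class held both the lowest and the highest mean of the family.

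H3 genes, which form a tetramer with H4 at the centre of the core, numbered 10 with a median of -0.54, 5 past the threshold below 0 and 1 above 0. H3c2 had -1.46, -0.34 and -0.96, a mean of -0.92 ± 0.56. H3c13 (-0.90 ± 0.75), H3c6 (-0.88 ± 0.32), H3c4 (-0.86 ± 0.40) and H3c10 (-0.53 ± 0.12) passed too, H3c13 not with median centring or the running median. None of the H3 means reached -1. H3c8 had 0.42, 0.34 and 0.29, all above 0, and passed above 0. It did not pass without array 1, 2 or 3 or with the first row of each gene alone. Nor did it pass with each row as its own feature, or with receptor centring, which put it at 0.00. H3c11 had -2.14, -0.12 and 0.59, so its arrays disagreed in sign and its mean of -0.56 stands for none of them; without array 1 it was 0.23.

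H3 comes from the clusters as H3.1 or H3.2, proteins that differ at a single residue. The genes for H3.1 (H3c8, H3c10 and H3c11) had a median of -0.53, and the 7 genes for H3.2 had -0.86. The 3 H3.1 means ran from -0.56 to 0.35, and the 7 H3.2 means from -0.92 to 0.36. With 3 genes on one side, the medians are given side by side only. H3c7, an H3.2 gene, had the highest of these means, with 0.54, 0.12 and 0.44 averaged over rows that differ in sign. It did not pass, except above 0 with array weights (0.38) and without array 2 (0.49).

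H4 genes numbered 11, all with a mean below 0, and 8 passed below 0. Limma called 0 above 0, and 0 had an unadjusted p under 0.05 there. Over all features 9.21% passed below 0 and 15.9% above 0. With 11 genes the count of 0 above 0 is not read as a trait of the class. H4 genes encode the same protein, as textbook accounts have it. H4c12 had -1.74, -1.12 and -1.38, a mean of -1.41 ± 0.31 or 2.66-fold higher in late carcinoma, and its array 2 value was the lowest of that array among the 51. H4c18 had -1.35, -0.79 and -1.09, a mean of -1.08 ± 0.28. H4c14 on the other cluster had -0.52, -0.49 and -0.57, smaller but even across arrays. H4c3 had 0.10 on array 2 against -1.21 and -0.82 on the others and did not pass. Without array 2, with array weights or with receptor centring it passed below 0. With the running median H4c6, H4c9 and H4c11 did not pass. H4c2 (-0.09 ± 0.07) and H4c8 (-0.01 ± 0.17) lay near 0.

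**Figure D2:**
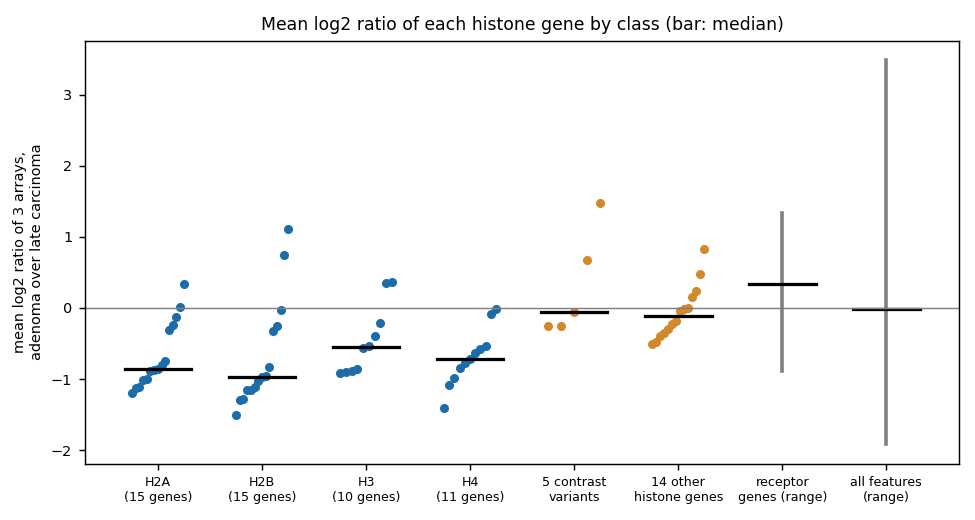
Mean log2 ratio over 3 arrays (y axis, adenoma over late carcinoma) of each gene, by histone class, with a bar for the median of the group and grey lines for the range over 979 olfactory and vomeronasal receptor genes and over all 31058 features. The medians of H2A, H2B, H3 and H4 lie at -0.86, -0.97, -0.54 and -0.72, and those of the 5 variants and the 14 other histone genes at -0.06 and -0.11.

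H2ac1 and H2bc1, the pair known as testis histones TH2A and TH2B, gave a comparison within the family. H2ac1 had 0.15, -0.23 and -0.64, and H2bc1 had -0.17, -0.32 and 0.41. Neither kept a sign across the arrays, and their means were -0.24 and -0.03. Without this pair the median of the other 49 genes was -0.85.

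The 5 variants differed among themselves. H3f3a and H3f3b encode the same H3.3 protein, the H3 used for repair and replacement outside replication. H3f3a had 1.08, 1.53 and 1.83, a mean of 1.48 ± 0.38 or 2.79-fold higher in adenoma, and passed above 0. H3f3b had -0.34, -0.25 and -0.18, a mean of -0.26 ± 0.08. So the H3.3 genes lay on opposite sides of 0 on each array. H2az1, for the H2A.Z variant found at promoters, had 0.86, 0.51 and 0.66, a mean of 0.67 ± 0.17, and passed above 0. H2ax, whose product is phosphorylated at DNA breaks, had -0.04, -0.13 and -0.59, and Macroh2a1, for a variant of silent chromatin, had 0.14, -0.23 and -0.09. Limma called 0 of the 5 below 0, where 1 had an unadjusted p under 0.05, and 2 above 0. Over all features 9.21% were called below 0 and 15.9% above 0, so with 5 genes a count of 0 is near the share of all features. Of the 51 clustered genes 30 were called below 0. With arrays centred on the receptor genes, H3f3b (-0.61), H2ax (-0.60) and Macroh2a1 (-0.41) passed below 0 as well, so the count of 0 depends on where 0 is set. Their median of -0.06 stood against -0.83 for those genes, and with receptor centring -0.41 stood against -1.18. The variants had 1 row each.

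Of a list of histone genes outside the symbol rule, 14 were measured, with a median of -0.11. Of these, 3 (21.4%) passed the threshold below 0 and 2 (14.3%) above 0, against 9.21% and 15.9% of all features. Linker histones H1 close the DNA around the core. The replication-dependent linker genes H1f1 (-0.35 ± 0.24), H1f3 (0.15 ± 0.31), H1f4 (-0.30 ± 0.24) and H1f5 (-0.50 ± 0.32) lay closer to 0 than most core genes, and of these H1f5 passed below 0, though not without array 1 or 3, with median centring or with a running median of 29 rows. H1f10, a linker gene not tied to replication, had -0.39 ± 0.02 and passed, as did the testis linker gene H1f6 with -0.48 ± 0.14; H1f10 did not pass without array 1 or 2, nor H1f6 without array 2. The germ cell linker genes H1f7 (0.24 ± 0.31) and H1f8 (-0.04 ± 0.28) did not. H2aj, an H2A gene outside the clusters, had 0.83 ± 0.53 and Cenpa, the centromere form of H3, 0.48 ± 0.21, and both passed above 0, Cenpa not with receptor centring (0.13), with the running median or without array 1. Without array 3 none of these 5 passed. H2bu2 (-0.23 ± 0.23), H2ap (-0.18 ± 0.27), H2al2a (-0.01 ± 0.27) and H2aw, with a mean that rounds to 0, did not pass. With receptor centring H1f1 (-0.70), H1f4 (-0.65), H1f8 (-0.39), H2bu2 (-0.58), H2ap (-0.53) and H2aw (-0.35) passed below 0, so these calls too depend on where 0 is set. H1f1 also passed below 0 with the running median (-0.51), and H1f7 passed above 0 with array weights (0.40). H4f16, an H4 gene that stands alone, is in neither the rule nor that list.

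Several rows were present for 6 of the 51 genes, and in 5 of these the row means differed in sign. H4c9 had a row at 0.12, 0.04 and -0.03 and another at -2.57, -0.73 and -1.53, so its mean of -0.78 lies between row means of 0.05 and -1.61. H4c2 had row means of 0.58 and -0.77, each with the same sign on all arrays. H3c7 had -0.16, 0.04 and 1.21, and H2ac18 had -0.38, 0.56 and -0.15. H4c8 had 0.08 and -0.10. Only H3c4 had rows of the same sign, at -1.17 and -0.55. The median of the 6 genes was -0.05, and that of the 45 genes with a single row was -0.86. With each row as its own feature, 33 of the 59 rows passed below 0 and 5 above 0. Over all rows 26.0% passed, 10.0% below 0 and 16.0% above 0.

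**Figure D3:**
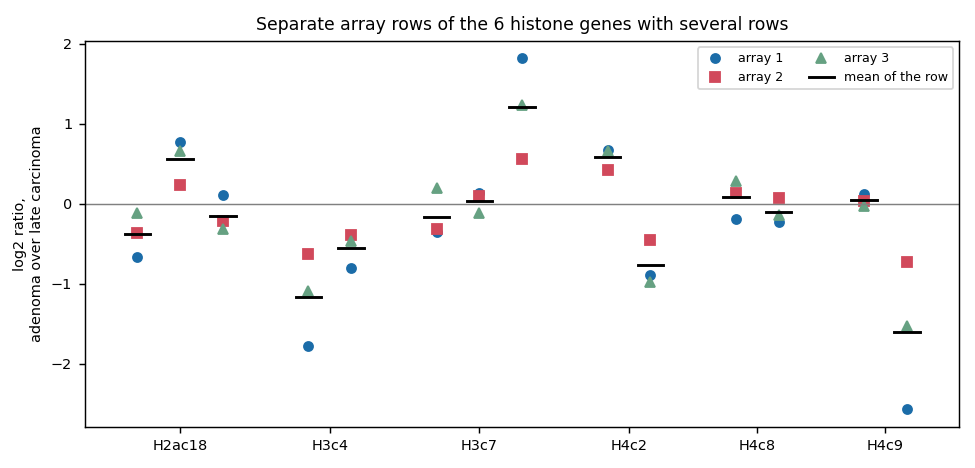
Log2 ratio (y axis, adenoma over late carcinoma) of each array row of the 6 clustered histone genes with more than 1 row, with a point for each of 3 arrays and a bar for the row mean. H4c9 and H4c2 each have a row well below 0 beside a row at or above 0, and H3c7 has a row at 1.21 beside rows near 0.

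Mouse core histone genes lie mainly in a large cluster on chromosome 13 and a smaller one on chromosome 3. The 43 members on chromosome 13 had a median of -0.83, with 25 past the threshold below 0 and 2 above 0. The 8 members on chromosome 3 had a median of -0.70, with 5 past below 0 and 1 above 0. Over all features 9.21% passed below 0 and 15.9% above 0. Both clusters held genes on either side of 0: H2bc18 lies on chromosome 3 near H3c13, and H2bc4 lies on chromosome 13.

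H2A and H2B genes often stand head to head around a shared promoter. In 10 pairs an H2A and an H2B member were neighbours less than 1000 bases apart, and all 8 pairs with a strand for both genes lay on opposite strands. In 8 pairs both means lay below 0, and in 8 pairs the means differed by at most 0.5. In each class 13 of the 15 genes had a mean below 0, so most pairs of an H2A and an H2B gene would share that side, neighbours or not. Whether neighbours were closer to each other than other pairs was not tested. H2ac13 and H2bc13 had -1.19 and -1.11, H2ac20 and H2bc21 -1.13 and -1.16, and H2ac7 and H2bc7 -1.11 and -1.51. Both partners were measured on the same arrays, so their differences were taken within each array. H2bc7 minus H2ac7 was -0.13, -0.30 and -0.76 on arrays 1, 2 and 3, and H2bc15 minus H2ac15 was -0.37, -0.37 and -0.57. Of the 10 pairs, the H2B gene was lower on all arrays in 3 and higher on all arrays in 1, and in 6 the difference changed sign between arrays, as for H2bc13 minus H2ac13 (0.46, -0.17 and -0.03). Means of opposite sign were found for H2ac6 with H2bc4, at -0.31 and 0.74, and for H2ac8 with H2bc8, at 0.34 and -0.33. In each of these, the arrays of the H2A and the H2B gene had opposite signs throughout.

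**Figure D4:**
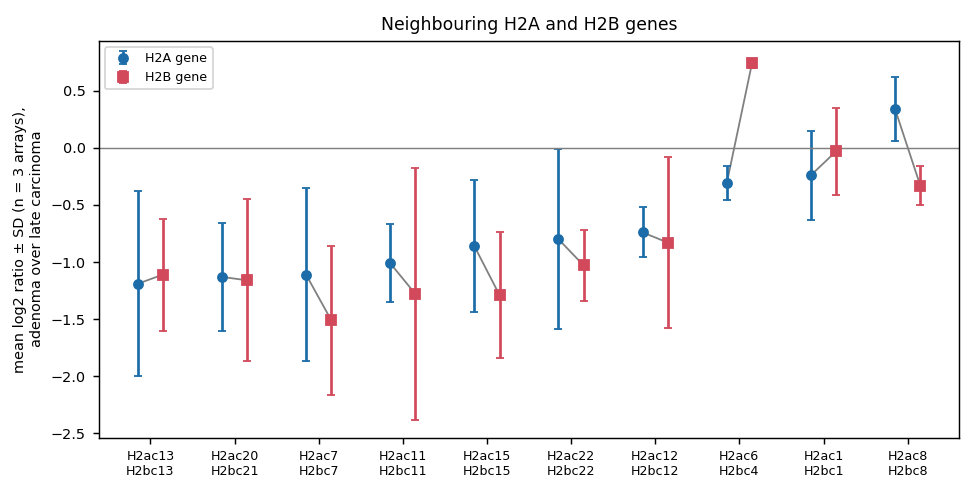
Mean log2 ratio ± SD over 3 arrays (y axis, adenoma over late carcinoma) of 10 neighbouring H2A (circles) and H2B (squares) genes, with a line joining each pair. The first 7 pairs, from H2ac13 with H2bc13 to H2ac12 with H2bc12, lie below -0.7 in both genes, while H2ac6 with H2bc4 and H2ac8 with H2bc8 straddle 0.

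Promoter letters were compared over windows of 300 bases, 250 before and 50 after the start, in RefSeq's table, which held 48 windows for 47 of the 51 genes. Pairs that stand head to head share part of their windows. CCAAT was found in 85.4% of the members' windows against 37.4% of all 32851 windows, and in all windows of the H2A, H2B and H3 genes, but in 3 of 10 H4 windows. TATAAA was found in 58.3% against 13.6%. The octamer ATTTGCAT, which is known from H2B promoters, was found in 27.1% against 1.74%, with 6 of the 13 windows in H2A genes, 7 in H2B genes and 0 in H3 or H4 genes. TTCGCGC was found in 22.9% against 1.59%, again in H2A and H2B genes only.

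The octamer and the E2F letters fell on different H2A and H2B genes in part. The 13 genes with the octamer in a window had a median of -0.31, with a range of -1.16 to 1.11, and the 15 without had -1.01, with a range of -1.51 to 0.01. For TTCGCGC, the 11 genes with it had a median of -1.0 and the 17 without had -0.86. H2bc7, the lowest, carries TTCGCGC and no octamer, and H2bc18, the highest, carries the octamer and no TTCGCGC, as the printed stretches show. The ranges overlap widely, and such matches are descriptions of letters. The split by motif was made after the values were seen and was not tested.

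Transcription and end processing of histone messenger RNAs depend on a small set of dedicated factors. Of 26 measured genes of this list, 5 (19.2%) passed above 0 and 1 (3.85%) below 0, against 15.9% and 9.21% of all features. Their median was -0.06, and 14 of the 26 means lay below 0. Slbp, which binds the stem-loop, had 0.99, 0.52 and 0.92, a mean of 0.81 ± 0.26, and passed above 0. Lsm10, a subunit of the U7 particle that guides cleavage, had 0.65, 0.42 and 0.56, and Cpsf2, a subunit of the cleavage complex, had 1.74, 0.72 and 1.02, and both passed above 0. These 3 genes lay on the adenoma side on every array, as did 7 of the 26 in all, and another 7 lay on the late carcinoma side on every array. Hinfp, a transcription factor of H4 genes, was named after its values were seen as the 1 gene below 0: it had -0.36 ± 0.12 and did not pass with median centring (-0.34), the running median (-0.17), the first row of each gene, robust variance or without array 2. With receptor centring Lsm10 came to 0.19 and did not pass, while Slbp, Cpsf2, E2f1 and Ccne2 still passed above 0, and Eri1 (-0.42) and Ccne1 (-0.41) passed below 0. Another U7 subunit gene, Lsm11 (0.14 ± 0.22), the cofactor Casp8ap2 (0.15 ± 0.39) and Eri1, a nuclease that trims the stem-loop (-0.07 ± 0.13), did not pass. Npat, which cyclin E with Cdk2 activates to start histone transcription, was not analysed here. E2f1 (1.12 ± 0.44) and Ccne2, a cyclin E gene (0.72 ± 0.14), passed above 0, and Ccne1 (-0.06 ± 0.10) did not pass. With the first row of each gene alone Ccne2 came to 0.24 and did not pass.

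Other S phase genes went both ways. Of 34 measured, 5 (14.7%) passed above 0 and 2 (5.88%) below 0, with a median of 0.04, so calls were no more common than the 15.9% and 9.21% of all features. Pcna, the replication clamp, had 1.34 ± 0.17, Ccna2, cyclin A, 1.10 ± 0.44, and the polymerase delta gene Pold1 -0.96 ± 0.08. Top2a, a topoisomerase of dividing cells from outside that list, had -0.58 ± 0.19 and passed below 0. It did not pass without array 3, where nearly all calls of the table were lost.

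Chaperones carry new histones to DNA. Of 22 measured, 4 (18.2%) passed above 0 and 4 (18.2%) below 0, against 15.9% and 9.21% of all features, with a median that rounds to 0. Asf1a and Asf1b encode forms of the same carrier of H3 with H4 and lay on opposite sides. Asf1a had 0.90, 0.50 and 0.89, a mean of 0.76 ± 0.22, and Asf1b had -0.57, -0.83 and -0.69, a mean of -0.70 ± 0.13. Both passed. Chaf1a, the large subunit of the assembly factor that works behind the replication fork, had -0.42 ± 0.19 and passed below 0, while its partner Chaf1b (-0.34 ± 0.68) did not pass. Nap1l1, a carrier of H2A with H2B (0.79 ± 0.42), and Anp32e, which removes H2A.Z (0.94 ± 0.30), passed above 0. Daxx, a chaperone of H3.3, had -0.47 ± 0.29 and passed below 0. Its partner Atrx (-0.18 ± 0.14) and the H3 carrier Nasp (-0.06 ± 0.05) did not pass. Npm1, a nucleolar chaperone, had -1.03 ± 0.74 and passed below 0. Without array 3 none of the genes of these 3 lists named here passed, Daxx did not pass without array 1, with median centring or with the running median, and Chaf1a did not pass without array 2. Npm1 did not pass with the first row of each gene alone (-0.59) or with the running median (-0.98). With receptor centring Chaf1b, Atrx and Nasp passed below 0.

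**Figure D5:**
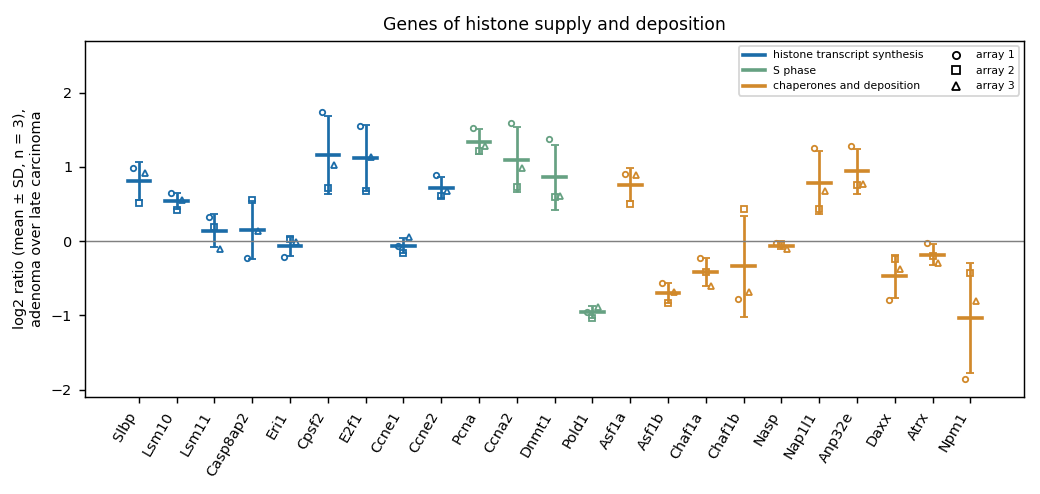
Log2 ratio (y axis, adenoma over late carcinoma) of genes for histone transcript synthesis, S phase and histone deposition, with an open symbol for each of 3 arrays, a bar for the mean and whiskers for the SD. Slbp, Lsm10, Cpsf2, E2f1, Ccne2 and Pcna lie above 0 on every array, and Asf1b, Chaf1a, Daxx and Npm1 below 0.

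Markers of other cell types and a background family were measured on the same arrays. The 979 olfactory and vomeronasal receptor genes, from the nose, lay between -0.88 and 1.33 with a median of 0.34, and 426 of them (43.5%) passed above 0 and 26 (2.66%) below 0, against 15.9% and 9.21% of all features. Centring on them took 0.408, 0.277 and 0.365 off every ratio of arrays 1, 2 and 3 and moved the median of the 51 histone genes to -1.18, with 44 past the threshold below 0 and 2 above 0. Fat cell markers had 6 of 14 past above 0 with a median of 0.24 and means from -0.28 to 3.49, and mammary epithelium markers 6 of 13 above 0 and 1 below 0 with a median of 0.32 and means from -1.16 to 2.44. T and NK cell markers had 2 of 8 above 0, myeloid markers 2 of 9 above and 1 below, and keratinocyte markers 2 of 7 above and 2 below. Limma called 0 of 7 B and plasma cell and 0 of 6 erythroid markers, with medians of -0.21 and -0.07; at an unadjusted p under 0.05 there were 1 above and 1 below for the B and plasma cell markers and 1 below for the erythroid ones. The part of any of these cells in the histone ratios was not tested.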

How the data were processed

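Values were the authors' deposited ratios for 3 arrays of 2 channels, read as log2 from the values, since the base is not stated. How the images were scanned, corrected and normalized is not given in the sources used here. Of 38976 rows, 22973 had 1 gene symbol, 0 several and 16003 none; all 22973 matched a gene identifier of GRCm38.p6, used for names and neighbours. Rows of a gene were averaged, unnamed rows kept, and 31058 features with 3 values entered an intercept model (limma 3.58.1, R 4.3.3), two-sided, with Benjamini-Hochberg adjustment over all features and 4.60 prior degrees of freedom. The fit was tested on simulated data. No filter on low values was applied, and 0 value columns were left unused. With 3 arrays the precision is limited.

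The members, lists and rules were chosen with earlier results of these data known. Named genes were the members by rank, sign or row disagreement, fixed factors, and up to 5 past the threshold with the smallest p per list. Of 204 list entries 163 were measured. Figures were drawn with matplotlib 3.10.9. Alternatives were median, receptor and running-median centring, first row, each row, array weights, robust variance, named genes alone, an adjusted p of 0.1 and leaving out each array.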

Additional observations from a re-analysis of the deposited data

How the results depend on the processing

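Every array is itself a ratio of the 2 stages, so the fit of the ratios against 0 compared the stages within each array. The count of 30 histone genes below 0 stayed between 24 and 44 over several settings. That held for centring on the median, on receptor genes or on a running median of 29 rows. It also held for the first row, array weights, robust variance, named genes alone and an adjusted p of 0.1. With each row as its own feature 33 of 59 rows passed below 0, a count of rows and not of genes. Leaving out an array gave 0 to 35 below 0 and 0 to 3 above 0. Without array 3 limma called 0 in both directions, and 34 and 3 had an unadjusted p under 0.05; that fit has 2 arrays. Above 0, each row as its own feature gave 5 rows in place of 3 genes. These were rows of H2bc4, H2bc18, H2ac18 (0.56), H3c7 (1.21) and H4c2 (0.58). The row of H3c8 did not pass there. The median of the 51 ran from -1.18 to -0.53 (without array 1) over all settings, and that of the 5 variants became -0.41 with receptor centring, in place of -0.06. Receptor centring also turned H2ac18, to -0.34, with a call below 0. With no call in either setting, it turned H2ac8 (-0.01), Casp8ap2 (-0.20), Lsm11 (-0.21), H1f3 (-0.20), H1f7 (-0.11) and the erythroid marker Alas2 (-0.08). Besides H2ac18, receptor centring gave 13 of the 51 genes a call and took one from 1. Of 63 other named genes it gave 14 a call and took one from 9. Array weights gave 6 of the 51 a call, and leaving out array 2 gave 6 a call and took one from 1. Taking the first row turned H4c9 (0.05), H4c2 (0.58) and Krt10 (-0.07), whose rows disagree, and, with no call in either setting, H3c7 (-0.15), H2ac18 (-0.38), H4c8 (0.08) and Nasp (0.13). Without array 1, H3c11 turned to 0.23. The running median ended 6 calls of the 51 and added 1, H2ac8 above 0, and median centring ended 2.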
